A study of Caenorhabditis elegans with 4 samples.

Results

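The X chromosome of Caenorhabditis elegans carried 425 of the 2515 regions in the combined list of CEH-39 binding regions from embryos (16.9%), and these 425 are the subject here. Within that list they were chosen by chromosome name alone, so no binding measurement decided the split between X and the autosomes. The list itself holds only regions called from the ChIP signal, so all its regions were already selected for binding. The regions came from chromatin immunoprecipitation followed by sequencing (ChIP-seq), in which antibodies against GFP recover a tagged factor together with the DNA crosslinked to it. The series comprised 2 ChIP libraries, each with its own region list, and 2 input libraries of total DNA, which were not analysed here. All 4 libraries were made from embryos of strain OP169, which is mutant for unc119(ed3) and carries the transgene wgIs169, a ceh-39::TY1 EGFP FLAG fusion with unc119, in a population of males and hermaphrodites held at 20 degrees Celsius. The shared background is therefore the unc-119 mutation together with a tagged ceh-39 transgene brought in by bombardment, and the recovered factor is the tagged copy. Such a strain holds ceh-39 DNA at the transgene in addition to the chromosomal gene, and short reads from both copies map to the same place. The labels do not state whether the replicates were separate cultures, so the spread between them may be technical.

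CEH-39 is a DNA-binding protein of the ONECUT homeodomain family, whose members combine a cut domain with a homeodomain. The gene lies on X and is known as an X signal element. The products of such elements are counted against autosomal signals in the early embryo, where they repress xol-1, the X-linked switch gene of sex determination, in XX animals that become hermaphrodites and not in XO animals that become males. On the autosomes of this species the centres recombine rarely and hold many conserved genes, whereas the outer arms recombine often. X shows this contrast less.

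Each region has a position on the WormBase WS220 build and a score. The score is the authors' own, on a scale of its own in each list. It sets the region's rank, with ties broken by the peak number. At the highest score, 1332 regions of replicate 1 were tied (234 on X), and 112 of replicate 2 (31 on X). Within these ties the rank rests on the peak number alone. In the combined list the highest score was 3.30, and 181 of the 425 X regions were tied there (42.6%), against 810 of 2090 autosomal regions (38.8%) and 39.4% of the whole list. The median X score was 2.66 and the median autosomal score 2.56, and the lowest scores were 1.11 on both. No genome or annotation of WS220 was used here, so no region is given a gene or a sequence.

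The highest X-linked region lay at 1856291 to 1856455 and ranked 14 in the combined list. Its replicate 1 rank was 8 and its replicate 2 rank 64. It belongs to the densest stretch of X, which may hold ceh-39 itself and so draw reads from the transgene copies, a possibility that was not tested. The second, at 15606855 to 15607120 with combined rank 17, stood at 25 in replicate 1 and 16 in replicate 2. Both libraries thus gave these regions the highest score of their lists. The third, at 2996986 to 2997198 (combined rank 20), had replicate 1 rank 42 and replicate 2 rank 14. The fifth, at 7823116 to 7823371 (combined rank 27), had ranks 50 and 38 in replicates 1 and 2. Another 3 had a better rank in replicate 2 than in replicate 1. They and the regions named before them here all held the highest score in both replicate lists. Peak number alone therefore set the replicate ranks of all these regions. The sixth, at 13598045 to 13598245, had replicate 1 rank 87 and replicate 2 rank 7. The eighth, at 806595 to 806826, had replicate 1 rank 99 and replicate 2 rank 15. The tenth, at 11937378 to 11937581, had replicate 1 rank 151 and replicate 2 rank 5, the best replicate 2 rank of any combined X region.

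The other members of the leading 10 ranked higher in replicate 1 and were below the highest score in replicate 2. The first also ranked higher in replicate 1, though it held the highest score in both lists. The fourth, at 14297083 to 14297350, had replicate 1 rank 12 and replicate 2 rank 730. The seventh, at 1446771 to 1447001, had replicate 1 rank 14 and replicate 2 rank 368. The ninth, at 5841178 to 5841356, had replicate 1 rank 33 and replicate 2 rank 341. All 10 overlapped a region in each replicate, and all 10 were narrow, at 165 to 268 bp. At the other end, the X region of lowest rank (2514 of 2515) lay at 10768687 to 10769150 and still overlapped replicate 1 (rank 3459) and replicate 2 (rank 4163). The next lowest, at 4216146 to 4216609, overlapped replicate 1 alone (rank 2485). The third from the end, at 924378 to 924841, overlapped both replicates (ranks 2853 and 3423).

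Against the whole replicate lists, which differ in length (30000 regions in replicate 1 and 19048 in replicate 2), support on X was close to complete in replicate 1 and less so in replicate 2. Of the 425 X regions, 424 shared at least 1 bp with a replicate 1 region (99.8%), against 2076 of 2090 autosomal regions (99.3%) and 99.4% of the whole list. In replicate 2, 377 X regions had an overlap (88.7%, 95% Wilson interval 85.3 to 91.4%), against 1850 autosomal regions (88.5%, 87.1 to 89.8%) and 88.5% of the whole list. Both replicates supported 376 X regions (88.5%) and 1837 autosomal ones (87.9%), with 88.0% over the whole list. The remaining X regions were 48 with replicate 1 alone, 1 with replicate 2 alone and 0 with neither. The X-minus-autosome difference in support by both was 0.58 percentage points (95% interval -3.06 to 3.65; Fisher's exact test, two-sided, p = 0.806, Benjamini-Hochberg adjusted over 8 comparisons 1). For replicate 2 it was 0.19 points (-3.41 to 3.22; Fisher's exact p = 1, adjusted 1), and for replicate 1 it was 0.43 points (-0.68 to 0.93; Fisher's exact p = 0.490, adjusted 0.981). None of these differences passed. With each replicate list shortened to its best 2515 regions, support was lower and the differences larger. Replicate 1 then supported 89.2% of X regions and 86.8% of autosomal ones, and replicate 2 supported 57.2% on X and 52.7% on the autosomes. Both supported 50.4% on X and 44.5% on the autosomes, a difference of 5.90 points (Fisher's exact p = 0.0284, adjusted 0.114) that did not pass the threshold. These tests and intervals take regions as independent and cover counting error only. How the combined list was built is not stated, and a list made from these 2 libraries would overlap them in part by construction.

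Support by replicate 2 was lower further down the list on X and on the autosomes alike. It was 174 of 181 X regions tied at the highest score (96.1%, 92.2 to 98.1%), against 95.7% of the autosomal ones. At combined ranks 992 to 1753 it was 85.8% on X and 86.6% on the autosomes, and at ranks 1754 to 2515 it was 80.0% on X and 81.4% on the autosomes. The 48 X regions with no replicate 2 overlap were not confined to the foot of the list. Among them 7 were tied at the highest score, against 35 of the 240 such autosomal regions. The best of the 48 by replicate 1 rank lay at 949339 to 949802, with rank 391. Many of the 48 had a replicate 2 region close by. The distance to it was 15 to 7563 bp, with a median of 828.5 bp, and 18 of the 48 lay within 500 bp (37.5%), against 85 of 240 on the autosomes (35.4%). The X region supported by replicate 2 alone lay at 11365877 to 11366340, with combined rank 2456 and replicate 2 rank 1364. Its nearest replicate 1 region was 241 bp away.

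The replicate ranks ordered the X regions differently, and the combined rank was nearer to that of replicate 1. Ranks 1 to 1332 of replicate 1 share 1 score, as do ranks 1 to 112 of replicate 2. The correlations, rank ratios and best-rank counts that follow therefore rest in part on peak number. Over the 376 X regions with support in both, the best overlapping ranks gave a Spearman rho of 0.27 between the replicates, and over the 1837 autosomal regions it was 0.26. The combined rank had a rho of 0.85 with the replicate 1 rank and 0.48 with the replicate 2 rank on X, and 0.87 and 0.45 on the autosomes. These correlations run across regions of the same libraries and are given as descriptions. Replicate 1 gave the better rank to 210 of the 376 X regions (55.9%), against 1139 of 1837 autosomal regions (62.0%). In 42 X regions the replicate 2 rank was more than 10 times the replicate 1 rank (11.2%, against 10.8% on the autosomes), and in 17 the reverse held (4.52%, against 2.61% on the autosomes). Both replicates placed 49 X regions within their best 500 ranks (13.0%, against 10.7% on the autosomes) and 8 within their best 100 (2.13%, against 2.07% on the autosomes). The median replicate 2 rank was 1346 on X and 1724 over the autosomes, and X had the best median of the 6 chromosomes there, ahead of III at 1582. In replicate 1 the medians were 1164.5 on X and 1238 over the autosomes, with V (1181.5) next to X. All of these lie within the replicate 1 tie at the highest score.

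**Figure D1:**
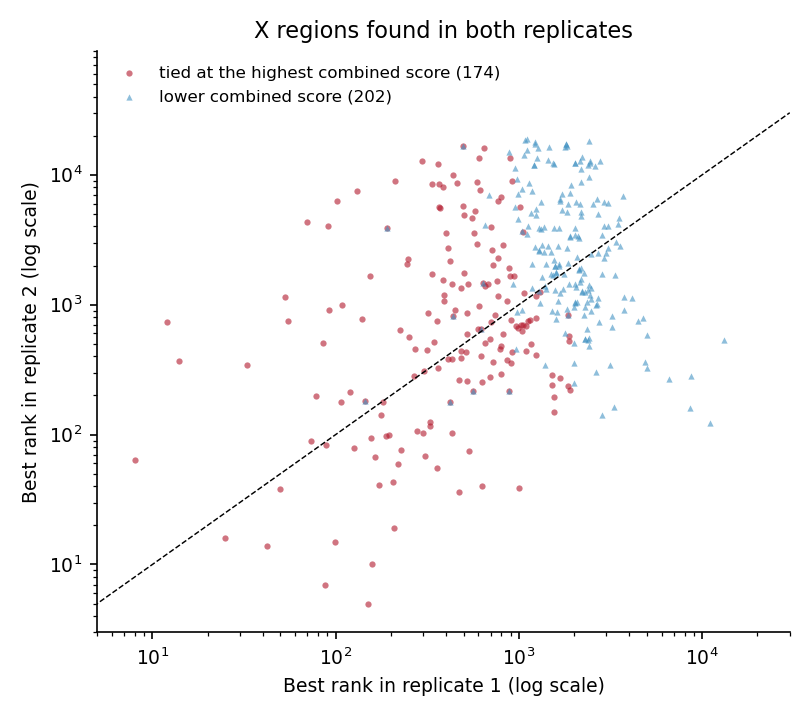
Each point is 1 of the 376 X regions that overlap both replicates, at its best overlapping rank in replicate 1 (x axis, log scale) and in replicate 2 (y axis, log scale). Circles are the 174 tied at the highest combined score and triangles the 202 below it. The circles and triangles part along the replicate 1 axis, where 149 circles and 20 triangles lie within rank 1000, more clearly than along the replicate 2 axis, where 109 circles and 48 triangles do. Ranks 1 to 1332 of replicate 1 and 1 to 112 of replicate 2 are ties ordered by peak number. The dashed line marks equal ranks.

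The combined positions also sat closer to replicate 1. The centre of an X region lay a median of 11 bp from the centre of its best replicate 1 region (quartiles 3 and 38 bp), against 9.5 bp on the autosomes. From the best replicate 2 region it lay a median of 47 bp away on X (quartiles 14 and 126 bp), against 43 bp on the autosomes. Centres fell within 10 bp of each other in 205 of 424 X regions for replicate 1 (48.3%, against 51.8% on the autosomes). For replicate 2 they did so in 72 of 377 (19.1%, against 22.4% on the autosomes). Some X regions covered several replicate regions. In replicate 1, 140 of 424 X regions overlapped at least 2 regions and none more than 3, against 665 of 2076 autosomal regions with at least 2. In replicate 2, 87 of 377 X regions overlapped at least 2, against 383 of 1850 autosomal regions.

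The share of regions at the top of the combined ranking did not differ past the threshold. The share tied at the highest score was 3.83 percentage points higher on X (95% interval -1.24 to 9.01; Fisher's exact p = 0.142, adjusted 0.568). X had the highest such share of the 6 chromosomes, at 42.6% (38.0 to 47.3%), with III at 40.8% (36.5 to 45.3%) and II lowest at 35.2% (30.7 to 40.1%), so the neighbouring intervals overlapped. X-linked regions made up 20 of the best 100 combined ranks (20.0%, 13.3 to 28.9%) and 28 of the next 150 (18.7%, 13.2 to 25.7%). The share was 19.2% at ranks 251 to 500, 17.4% at 501 to 1000, 16.0% at 1001 to 1500 and 18.0% at 1501 to 2000. At ranks 2001 to 2515 it was 72 of 515 (14.0%, 11.3 to 17.2%). The intervals of all these bands overlap as well. Combined ranks 1 to 991 share 1 score, so membership of the bands inside that tie rests on peak number.

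Most X regions had one width, 464 bp, and only 40 were narrower (9.41%), against 199 of 2090 autosomal regions (9.52%) and 9.50% of the whole list. The difference was -0.11 percentage points (-2.88 to 3.26; Fisher's exact p = 1, adjusted 1). The narrow X regions were 116 to 268 bp wide. All 40 were tied at the highest score and all 40 overlapped both replicates, at a median rank of 147.5 in replicate 1 and 111 in replicate 2. On the autosomes 196 of the 199 narrow regions were tied at the highest score and 193 overlapped both replicates. The median ranks of the narrow autosomal regions were 135 in replicate 1 and 263 in replicate 2.

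The density of X regions depended on what it was measured against. Per Mb, X held 24.0 regions and the autosomes 25.3, which is a ratio of 0.947. Its 95% exact interval ran from 0.851 to 1.05, and the difference did not pass (exact binomial test, two-sided, p = 0.321, adjusted 0.855). Without V, the sparsest autosome, the ratio per Mb was 0.826 (exact binomial p = 0.000351, adjusted 0.00140), and in the central 50% of each chromosome it was 0.758 (exact p = 0.000247, adjusted 0.000989), so both ratios passed below 1. Per 100 protein-coding genes, X held 15.6 regions and the autosomes 12.1, a ratio of 1.28 (1.15 to 1.43; exact binomial p = 4.43e-06, adjusted 3.55e-05). This second scale was added after the data were seen. It uses only the number of genes that RefSeq (WBcel235) places on each chromosome, 2730 on X, and no gene position. It turned largely on chromosome V, which had 4995 such genes and the fewest regions. Without V the ratio per gene was 1.07 (0.957 to 1.19; exact binomial p = 0.236).

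In the order of chromosomes, X had place 4 of 6 per Mb and place 3 of 6 per gene. Per Mb it followed I (35.2), III (34.5) and II (26.2) and preceded IV (21.9) and V (14.4). The 95% exact Poisson intervals of X (21.8 to 26.4), II (23.7 to 28.9) and IV (19.8 to 24.2) overlapped. Per 100 genes, X at 15.6 (14.1 to 17.1) lay between III at 18.0 (16.4 to 19.7) and IV at 11.7 (10.5 to 12.9), and its interval overlapped that of III and not that of IV. With 1 chromosome set against 5, a permutation over chromosomes cannot give a p below 0.167.

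**Figure D2:**
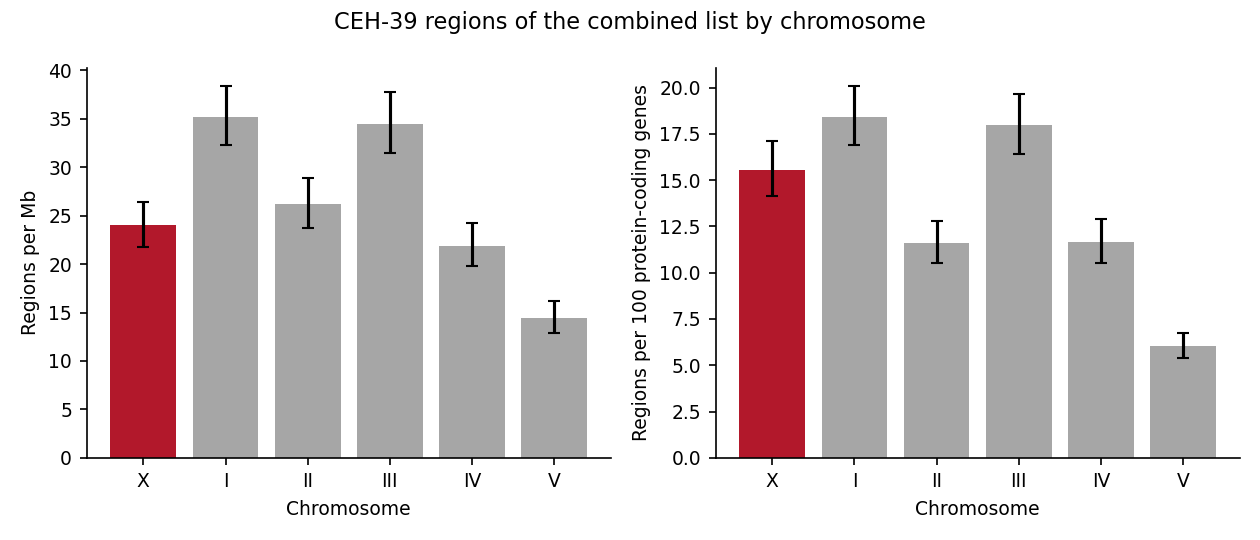
Bars give the number of combined CEH-39 regions per Mb (left) and per 100 protein-coding genes (right) for X (red) and the 5 autosomes (grey), with 95% exact Poisson intervals that cover counting error only. X stands at 24.0 per Mb, close to II (26.2) and IV (21.9), and at 15.6 per 100 genes, above II (11.6) and IV (11.7).

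The replicates differed on the density of X. The replicate 1 list holds exactly 30000 regions, and whether it was cut at that number is not stated. Replicate 1 placed 4544 of its 29978 nuclear regions on X (15.2%) and replicate 2 placed 3523 of 19048 there (18.5%), so that X held 256 regions per Mb in replicate 1, against 308 on the autosomes, and 199 in replicate 2, against 188 on the autosomes. The ratios were 0.832 in replicate 1 (exact binomial p = 2.31e-31, adjusted 1.85e-30) and 1.06 in replicate 2 (exact p = 0.00324, adjusted 0.0130), so the 2 lists passed the threshold in opposite directions. Both tests take regions as independent and cover counting error only. Each p was adjusted alongside the other comparisons of the combined list, not those of its own replicate. Joined where they overlap, the X regions formed 3826 loci in replicate 1 and 3237 in replicate 2. The combined X share of 16.9% lay between those of the replicates. Regions covered 1.03% of X in the combined list, 10.9% in replicate 1 and 7.99% in replicate 2. Of all X regions in replicate 1, 543 overlapped a combined region (11.9%, 11.0 to 12.9%), against 10.4% on the autosomes (10.0 to 10.8%). In replicate 2 it was 443 on X (12.6%, 11.5 to 13.7%), against 13.9% on the autosomes (13.4 to 14.5%). The intervals of X and the autosomes were apart in replicate 1 and overlapped in replicate 2, and no test was made of these shares.

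In the combined list a smaller share of regions lay in the centre of X than in the centres of the autosomes. The central 50% of X held 194 of the 425 regions (45.6%, 41.0 to 50.4%), against 1192 of 2090 on the autosomes (57.0%, 54.9 to 59.1%) and 55.1% of the whole list. The difference was -11.4 percentage points (-16.5 to -6.18; Fisher's exact p = 1.83e-05, adjusted 0.000147), a test that takes regions as independent and covers counting error only. X had the lowest central share of the 6 chromosomes, below II at 53.2% (48.4 to 58.1%). The interval of X overlapped that of II and not those of the other autosomes. The replicates did not both show a lower central share on X. In replicate 2 the central share was 50.2% on X and 54.3% on the autosomes (difference -4.18 points, -6.00 to -2.35; Fisher's exact p = 7.72e-06, adjusted 6.18e-05), whereas in replicate 1 it was 43.2% on X and 41.4% on the autosomes (1.78 points, 0.23 to 3.35; Fisher's exact p = 0.0252, adjusted 0.202). The difference is therefore that of the combined and replicate 2 lists and had the other sign in replicate 1.

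With each chromosome cut into 10 equal parts from its left end, X was fullest in part 2, with 55 regions (12.9%), and in parts 8 and 9, with 51 (12.0%) and 50 (11.8%). Parts 4 and 6 were the emptiest, with 32 (7.53%) and 34 (8.00%). On the autosomes together the fullest was part 6 (12.4%) and the emptiest part 2 (8.04%). Of the 55 regions in part 2, 12 belong to the single densest stretch of X. Without them part 2 held 43, fewer than parts 8, 9 and 3 (51, 50 and 44). Part 2 of X was also its fullest in replicate 1 (13.2%) and in replicate 2 (11.6%), and it stayed so without the stretch (12.7% in replicate 1 and 10.9% in replicate 2). The left and right sides of X held similar numbers, with 209 regions left of the midpoint and 216 right of it.

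**Figure D3:**
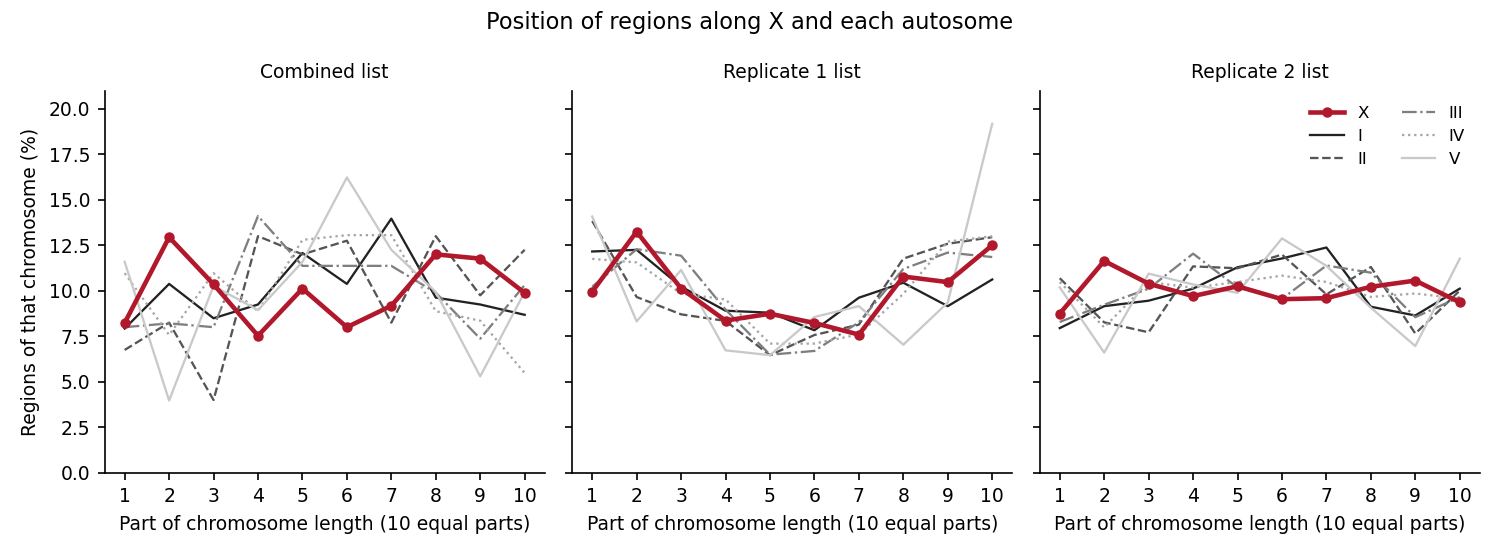
Each line gives the share of a chromosome's regions (y axis, percent) in each of 10 equal parts of its length (x axis), for X (red, with points) and the autosomes (grey shades), in the combined, replicate 1 and replicate 2 lists. In the combined list X reaches 12.9% in part 2 and holds 8.00% in part 6, where the autosomes together hold 12.4%. In replicate 1 all chromosomes dip in the middle.

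In steps of 1 Mb, X held 18 to 36 combined regions per bin (24.1 ± 4.75, SD, n = 17 full bins). The fullest bin, from 14 to 15 Mb, had 36 regions, of which 20 were tied at the highest score and 34 were found in both replicates. The bins from 5 to 6 and from 9 to 10 Mb had the fewest, at 18 each. Regions tied at the highest score were less even, from 3 in the bin from 3 to 4 Mb to 20 in the fullest bin. In both replicates the fullest bin was that from 2 to 3 Mb, with 384 regions in replicate 1 and 241 in replicate 2, and the emptiest that from 9 to 10 Mb, with 167 in replicate 1 and 164 in replicate 2. Over the 17 bins the counts had a Spearman rho of 0.39 between replicates, 0.72 between the combined list and replicate 1, and 0.41 between the combined list and replicate 2, given as descriptions because neighbouring bins and shared libraries are not independent.

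Joining overlapping regions left 411 loci on X. The median gap between neighbouring loci was 26484 bp on X (quartiles 7303 and 62370 bp, 410 gaps), against 21910 bp on the autosomes (quartiles 7060 and 53605 bp, 2027 gaps). The 95% binomial interval of the X median, 22192 to 30936 bp, lies above the autosomal median. It takes gaps as independent, which gaps along 1 chromosome are not, and holds the autosomal median fixed, so it is a description. The medians ran in the order V (43558 bp), IV (27793), X, II (21042), I (18601) and III (16662), the reverse of the order of density per Mb except that I and III change places. The median was 0.631 of the mean gap on X and 0.542 to 0.640 of it on the autosomes. In replicate 1 the median gap was 2132 bp on X and 1545 bp on the autosomes, and in replicate 2 it was 3091 bp on X and 3075 bp on the autosomes.

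**Figure D4:**
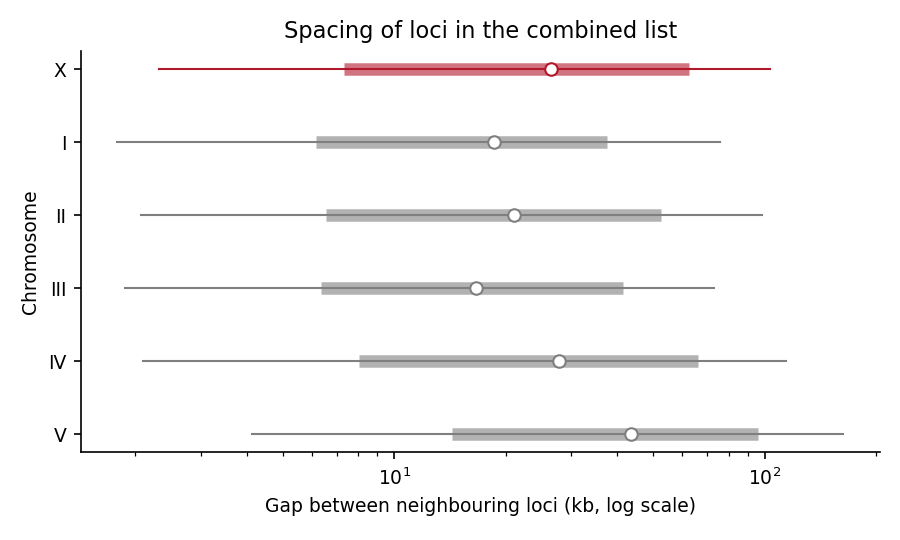
For each chromosome (X in red at the top, autosomes in grey), the open circle is the median gap between neighbouring combined loci (x axis, kb, log scale), the thick bar runs from the first to the third quartile and the thin line from the 10th to the 90th percentile. The X median of 26484 bp lies between those of II (21042 bp) and IV (27793 bp).

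In the combined list the share of loci with a close neighbour did not differ detectably. A neighbour within 2 kb was found for 68 of 411 X loci (16.5%, 13.3 to 20.4%), against 359 of 2032 autosomal loci (17.7%, 16.1 to 19.4%), a difference of -1.12 percentage points (-4.82 to 3.09; Fisher's exact p = 0.619, adjusted 0.990). In the denser replicate 1 list the difference was -8.55 points (Fisher's exact p = 5.01e-31, adjusted 4.01e-30), and in replicate 2 it was -0.26 points (exact p = 0.782, adjusted 1). The closest pair of separate loci, at 15724766 to 15725229 and 15725455 to 15725918, was 225 bp apart, with combined ranks 1823 and 1847. The pair at 16611281 to 16611744 and 16612135 to 16612598 was 390 bp apart, with ranks 1150 and 243. A pair with high ranks, 111 and 87, lay 403 bp apart at 1857739 to 1858202 and 1858606 to 1859069. The other two closest pairs were 430 bp apart, starting at 14486358 (ranks 508 and 2434), and 436 bp apart, starting at 7661495 (ranks 2091 and 2477). Close neighbours therefore joined regions of like rank in some pairs and of unlike rank in others.

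The widest gaps on X were 268840 bp after 9505331, 241689 bp after 17222222 and 210425 bp after 1627216. Only these 3 gaps on X exceeded 200 kb, against 2 to 17 on each autosome.

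Within loci, 14 pairs of X regions overlapped each other. In all 14 the left member had the better rank, and in 10 it was tied at the highest score while the right member was not. Their centres were 193 to 275 bp apart, with a median of 205 bp. On the autosomes there were 58 such pairs, with the left member better in 53 and a median distance of 206.5 bp. The pair at 15040489 to 15040952 and 15040690 to 15041153, for example, had ranks 296 and 1069. The last pair on X, at 17714460 to 17714575 and 17714479 to 17714942, joined a narrow region of rank 671 to a full-width one of rank 2071. These pairs were picked out after their values were seen.

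The densest stretch of X was found by counting loci in 50-kb windows, and its regions were likewise singled out after the fact. ceh-39 is known to lie in the left part of X, as this stretch does, and the transgene adds copies of ceh-39 DNA whose reads map to the chromosomal gene. No WS220 annotation was used, so whether the stretch holds ceh-39, and what part the transgene has in the counts, scores and densities there, was not tested. It ran from 1837642 to 1881085, a span of 43.4 kb, and held 11 loci with 12 regions, among them the highest-ranked region of X. The next densest X windows had 7 loci each, and the highest counts on the autosomes ran from 5 to 11, with chromosome III also at 11. All 12 regions overlapped both replicates, as did 88.0% of the whole list. Of the 12, 7 were tied at the highest score (58.3%, against 42.1% over the rest of X). The combined list held 2.76 regions per 10 kb there and 0.234 over the rest of X, an 11.8-fold difference that the choice of the window makes large. Replicate 1 had 6.21 regions per 10 kb there and 2.56 over the rest of X (2.43-fold), and replicate 2 had 6.45 and 1.98 (3.26-fold).

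Inside the stretch the regions of best combined rank lay near its centre. By score this did not hold, since 7 of the 12 regions, both outermost ones among them, shared the highest score. Their order rests on peak number. The region at 1856291 to 1856455 (replicate ranks 8 and 64) was followed by that at 1857739 to 1858202, with combined rank 111, replicate 1 rank 70 and replicate 2 rank 4325. Next came that at 1858606 to 1859069, with combined rank 87, replicate 1 rank 120 and replicate 2 rank 211. To the left lay regions at 1853560 to 1854023 (combined rank 501, ranks 559 and 218 in replicates 1 and 2) and 1845595 to 1846058 (combined rank 387, ranks 793 and 290). The 7131 bp from 1853560 to 1860690 held 5 loci linked by gaps of at most 2 kb, the longest such chain on X, where 343 loci stood alone, 30 chains had 2 loci and 1 had 3. Gaps between loci inside the stretch had a median of 1637.5 bp. On its left side no locus was found for 210425 bp, one of the 3 widest gaps on X, and on its right side none for 28242 bp.

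**Figure D5:**
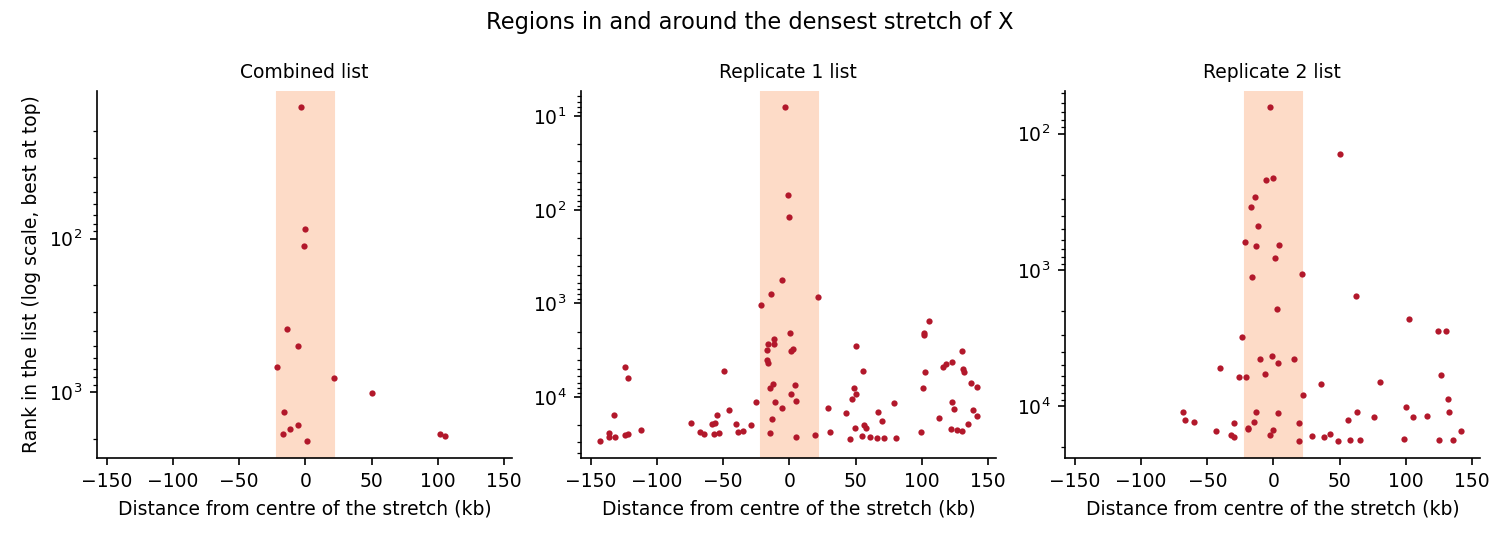
Points are the regions of each list within 150 kb of the centre of the densest stretch (x axis, distance in kb), at their rank in that list (y axis, log scale, best rank at the top). The shaded band marks the 43.4 kb of the stretch, which holds 12 combined, 27 replicate 1 and 28 replicate 2 regions. The best ranks of all 3 panels (14, 8 and 64) lie at the same place inside the band, and no combined region is seen on its left.

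A few strong X regions of the replicates had no combined counterpart. All 18 X regions among the best 100 of replicate 1 overlapped a combined region, as did 97 of the 98 among its best 500 (99.0%, 94.4 to 99.8%), against 397 of 398 on the autosomes. The exception, at 11605665 to 11605888, ranked 262 in replicate 1 and overlapped a replicate 2 region of rank 39. It lay 30 bp from the nearest combined region. In replicate 2, 27 of the 28 X regions in the best 100 and 90 of the 98 in the best 500 overlapped a combined region (91.8%, 84.7 to 95.8%), against 375 of 402 on the autosomes (93.3%, 90.4 to 95.3%). The region at 5429320 to 5429735 ranked 26 in replicate 2, yet its nearest replicate 1 region was 21514 bp away and its nearest combined region 45419 bp. Among the best 2515 ranks, 90.1% of the X regions of replicate 1 and 53.3% of those of replicate 2 overlapped a combined region, against 86.7% and 53.5% on the autosomes.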

How the data were processed

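The authors deposited 3 region lists, 1 for each ChIP replicate and 1 combined, with positions on WormBase WS220, per the file headers. Every row gives its source as spp via IDR, per the files: SPP is a peak caller, and IDR stands for irreproducible discovery rate, a comparison of replicate ranks. The deposited score has no named unit and served only to rank regions within a list. No source states the aligner, versions, thresholds or use of the input. Read depth is unknown, so its effect on precision cannot be given.

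X regions were taken by chromosome name and compared with the autosomal regions of the same list, using Python 3.11.15, numpy 2.4.6, pandas 2.3.3, scipy 1.17.1 and matplotlib 3.10.9. Overlap meant at least 1 bp. The end of the last region in any list stood for chromosome length (17718022 bp for X), which may fall short of it. Density was compared with an exact binomial test and shares with Fisher's exact test, all two-sided and Benjamini-Hochberg adjusted over 8 comparisons. For an alternative setting, single replicates included, its p took the place of the main p of that result. The other main p values of the combined list were kept. All these tests take regions or loci as independent and cover counting error only. The threshold was an adjusted p of 0.05. Intervals are 95% (Wilson for shares, combined by Newcombe's method for differences). Mitochondrial regions were left out. The calculations were tested on simulated data. The named regions were the 10 highest and 3 lowest on X, those without replicate 1 support, the 5 closest pairs and the 3 widest gaps. Others are named as picked afterwards. The members, lists and tests were chosen with earlier results of these data known. Alternatives were stricter overlap, shorter lists, joined loci, omission of chromosome V, other central parts and neighbour limits, and single replicates. Counts per gene and omission of the densest stretch were added after the data were seen.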

Additional observations from a re-analysis of the deposited data

How the results depend on the processing

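Of 52 alternatives over the 9 results, 38 kept the direction and the side of the threshold (for the median gap, the X-to-autosome ratio stayed between 1.01 and 1.41). The central share was lower on X, past the threshold, with central parts of 40% and 60%, in the best-scoring 50% of the list, without V and without the densest stretch (-12.4 to -8.47 percentage points). In single replicates it ran from -4.18 to 1.78 points. The density ratio changed most. It was 1.004 in the best-scoring 50%, 0.826 without V, 0.758 in the central 50%, 1.28 per gene and 1.07 per gene without V, and 0.832 to 1.06 in single replicates. Omitting V lowers the ratio by construction, since V is the sparsest autosome. The difference in replicate 2 support was -0.0525 points without V and -0.139 points without the densest stretch, that in narrow regions was 0.0338 points for widths below 400 bp, and that in loci with a neighbour was 1.53 points at 5 kb. None of these 4 passed the threshold. The share with a neighbour within 2 kb differed by -8.55 to -0.264 points in single replicates, and the gap ratio was 1.005 to 1.38. What caused these other shifts was not tested. The counts per gene and the omission of the densest stretch were chosen after seeing the data.

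No paired analysis was possible because no region list of the inputs was used and both ChIP libraries form 1 group. In the combined list, ties leave the order of 181 X regions to the peak number. In the replicate lists they do so for 234 X regions (replicate 1) and 31 (replicate 2). Unknown read depth leaves the lower end of each list without a stated precision.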
